A study of Mus musculus with 9 samples.

Results

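In SP4 thymocytes sorted by a Nur77 reporter, 160 of the 41978 genes in the expression table fell with reporter level by a rule on level, size and overlap, and these named genes are described here. A member had a mean of at least 5 TPM, a read count scaled for gene length and library size, in GFPlo, a GFPhi mean at least 0.8 lower on the log2(TPM + 1) scale, and its highest GFPhi sample below its lowest GFPlo sample. Of 524 genes past these conditions, 364 were left out by symbol, among them cluster of differentiation, interleukin, chemokine receptor, integrin, antigen receptor, MHC, ribosomal and predicted genes. The GFPhi and GFPlo values chose the members, so the difference between those groups describes the members, and limma calls of members in that contrast are counted once, below, and are no result. The mirrored rule for genes rising with the reporter gave 406. Without GFPlo replicate 3 the falling rule gave 263 members, and without GFPhi replicate 1 it gave 268.

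The cells came from mice that carry the Nur77-eGFP BAC transgene, in which GFP is placed under regulatory sequence of Nr4a1, and all 3 groups carried it. Live CD25- CD69+ CD24+ CD4+ CD8- thymocytes, called semi-mature SP4 in the labels, were sorted at 10000 cells per sample from the low (GFPlo), medium (GFPmed) and high (GFPhi) 10% of the GFP distribution, with 3 samples per group and 9 in all. The labels name no treatment of the mice, which in the study were of either sex and 3 to 10 weeks old, with the animals behind each sample not given in the sources used here. GFP in these mice reports Nr4a1 transcription and not its protein, and each group is a slice of 1 continuous distribution.

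Nr4a1 encodes Nur77, an orphan nuclear receptor that is transcribed quickly after the T cell receptor (TCR) is engaged, so its reporter level in CD4 single-positive thymocytes is used as a readout of how strongly a cell has met self-antigen. At this stage cells that see self strongly can be deleted, become regulatory T cells (Treg) or become unresponsive, while others go on to mature and leave. Transcription factors of the HMG-box, RUNX, E protein and ID families direct lineage choice in these cells, Bcl2 protects them from apoptosis, and Egr and AP-1 factors are early targets of TCR signalling.

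Nr4a1 itself was at 187 to 251 TPM in GFPlo, 351 to 406 in GFPmed and 767 to 917 in GFPhi, in the order of the gates. Total reads on genes ran from 7465552 to 14943774 per sample, and whole reads could be solved from the deposited values for 41578 genes. Markers of the sorted cell (9 genes, Cd4, Cd3e and Trac among them) summed to 10566 to 13602 TPM in GFPlo and 11128 to 12469 in GFPhi. Cd69, a marker of the gate, was the 1 of these called lower by limma, with means of 375 TPM in GFPlo and 216 in GFPhi. Its log2 difference was -0.794 (limma adjusted p = 0.0142), and 0 of the 9 were called higher. Among marker lists of other cells, 7 DP thymocyte genes summed to 58.8 to 61.8 TPM in GFPlo, 50.5 to 53.5 in GFPmed and 27.9 to 36 in GFPhi, with Cd8a, Cd8b1 and Dntt lower in GFPhi than in GFPlo. The 5 innate-like or gamma-delta T cell genes summed to 103 to 117 TPM in GFPlo and 35.9 to 48.1 in GFPhi, and to 23.9 to 28.6 and 16.1 to 28 without Il17rb. That list holds Sox13, a member, whose fall the rule required. Trdc, Klrb1c and Zbtb16 did not fall, with means of 15.1, 1.94 and 0.0986 TPM in GFPlo and 16.9, 2.52 and 0.142 in GFPhi. The dendritic cell list summed to 319 to 347 TPM in GFPlo and 65.2 to 83.1 in GFPhi, and to 13.5 to 27.3 and 6.16 to 23.2 without Ccr9, which thymocytes express. Macrophage markers summed to 23 to 38.4 TPM in GFPlo and 17.6 to 29.6 in GFPhi, CD8 lineage markers to 57 to 63.5 and 50.5 to 58.8, and B cell markers to 233 to 236 and 122 to 180, or to 20.6 to 28.8 and 11.7 to 31.1 without Ighm. The CD8 lineage sum joins opposite changes. Cd8a and Cd8b1 went from means of 16.7 and 18.9 TPM in GFPlo to 7.15 and 10.5 in GFPhi, and Runx3 from 7.32 to 15.1. Eomes and Nkg7, not called by limma, were at 1.48 and 15.4 TPM in GFPlo and 4 and 16.6 in GFPhi. Thymic epithelium markers stood at 26.9 to 34.6 TPM and 34.9 to 38.9, and erythroid markers at 3.09 to 4.57 and 4.07 to 9.09. Treg markers went the other way, from 177 to 198 TPM in GFPlo to 728 to 843 in GFPhi. No listed marker in the table was at 0 in all 9 samples, and the part of any of these cells in the members' differences was not tested. In bulk RNA, fewer cells of a kind and less RNA per cell cannot be told apart.

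Promoter sequence is shown for 3 members whose window holds the core letters bound by EGR zinc finger factors, because Egr2 is itself a member. RefSeq windows (build GRCm38.p6, 250 bases before a start site to 50 after) were matched by symbol for 110 of the 160 members, 155 windows in all. The EGR letters GTGGGCG, searched on both strands, were in 18 of these 155 windows (11.6%) and in 7.97% of all 32851 windows. The 250 bases before the start are printed on the gene's strand for Itm2a (chrX:107403361-107403610, minus strand), Myo6 (chr9:80164784-80165033, plus strand) and Egr2 (chr10:67535249-67535498, plus strand), with the EGR letters, here on the opposite strand, in capitals.
Itm2a: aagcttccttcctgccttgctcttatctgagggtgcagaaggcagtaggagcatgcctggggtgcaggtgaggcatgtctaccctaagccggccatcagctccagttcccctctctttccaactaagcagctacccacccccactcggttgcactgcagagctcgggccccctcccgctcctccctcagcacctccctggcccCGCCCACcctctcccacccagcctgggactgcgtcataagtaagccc
Myo6: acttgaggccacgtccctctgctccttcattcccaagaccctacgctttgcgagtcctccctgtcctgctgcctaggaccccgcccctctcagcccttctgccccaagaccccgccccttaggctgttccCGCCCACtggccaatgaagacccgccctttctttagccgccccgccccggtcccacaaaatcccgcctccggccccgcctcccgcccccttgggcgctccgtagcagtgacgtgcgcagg
Egr2: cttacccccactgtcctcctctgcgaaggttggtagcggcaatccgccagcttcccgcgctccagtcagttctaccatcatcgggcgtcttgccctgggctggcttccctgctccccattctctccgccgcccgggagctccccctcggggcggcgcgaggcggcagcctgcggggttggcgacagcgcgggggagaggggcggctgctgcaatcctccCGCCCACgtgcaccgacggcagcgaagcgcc
The match begins at base -47 from the start site in Itm2a, -120 in Myo6 and -31 in Egr2. The other motifs searched on both strands were RUNX (TGTGGT, 12.3% of member windows and 16.8% of all), TCF/LEF (CTTTGAN, 11% and 16%), AP-1 (TGANTCA, 9.68% and 7.81%), ETS (CCGGAAG, 7.1% and 8.86%), the E-box CACCTG (22.6% and 20.2%), FOXO (GTAAACA, 1.94% and 3.65%) and the NR4A monomer site NBRE (AAAGGTCA, 0 of 155 windows and 1.51% of all). Such matches describe letters only, and EGR and ETS letters lie in GC-rich sequence, which promoters share.

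The data behind the 160 members ran from a mean of 1.67 reads in GFPlo to 53539, with a median of 267. A mean of 50 or more reads in GFPlo was reached by 114 members, a split chosen after the data were seen. Annotated protein-coding genes made up 135 of the 160, and 24 of those had fewer than 50 reads, as had all 9 processed and all 5 unprocessed pseudogenes. Another annotated gene overlapped 68 members, Junos at Jun, Ccr9 at Lztfl1 and Lef1os1 at Lef1 among them, and because the kit does not mark strand and strand-aware counting is not stated, reads of such pairs cannot be told apart. Reads of the pseudogenes and of the olfactory and vomeronasal receptor genes may be split with near-identical copies, so their values are uncertain.

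At the edge of the size condition, Ube2d2b, St8sia4 and Zfp114 were just inside, with log2 differences of -0.80, -0.81 and -0.81, while Cmtr2, Cyp2d22 and Trim46 were just outside, each at -0.80 after rounding. At the edge of the level condition, Fthl17e, Miox and Olfr356 had GFPlo means of 5.07, 5.11 and 5.16 TPM, and Ccl8, P2ry1 and Olfr241-ps1 lay outside at 4.91, 4.84 and 4.80 TPM. Between GFPlo and GFPhi, 13 members differed by 2 or more on the log2 scale, 71 by 1 to 2, and 76 by less than 1. With 50 reads or more, these counts were 6, 52 and 56. Each test below used limma over all 30693 genes that reached 1 TPM in 3 or more of the samples, and all 160 members were among them. GFPhi was below GFPlo at an adjusted p of at most 0.05 in 95 members, against 1.51% of all genes tested, and in 53 with a log2 difference of at least 1, against 0.404%, and nothing is read from these counts, since the members were chosen on this contrast. Gene families are therefore described below by their genes that are no members. Leaving out the members takes away only falling genes, so the lower counts of a family are cut by it and the higher counts are not. Of the 30533 such genes tested, limma called 1.21% lower and 2.39% higher in GFPhi than in GFPlo at an adjusted p of at most 0.05, and this is the call meant wherever a family is counted. Over all genes, 464 were called lower and 730 higher in GFPhi than in GFPlo, so that 38.9% of calls were lower, and under median-of-ratios scaling 75 and 333, or 18.4%.

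GFPmed lay strictly between the other groups in 142 of the 160 members, above GFPlo in 11 and below GFPhi in 7. The rule set GFPlo and GFPhi apart in every member, which by itself makes a GFPmed mean between them likely. These counts therefore only describe the members. The share of the fall reached in GFPmed, which is the GFPlo minus GFPmed difference over the GFPlo minus GFPhi difference on the log2(TPM + 1) scale, had a median of 26.4%, with quartiles of 15% and 37.6%. With each GFPmed sample alone it was 23.1%, 22.7% and 28%. The median log2 difference of the members was -0.309 for GFPmed minus GFPlo and -0.766 for GFPhi minus GFPmed, and over all genes tested it was -0.0049 and -0.0657. In all, 139 members (86.9%) were nearer to GFPlo than to GFPhi. Of the genes rising by the mirrored rule, 84.7% were nearer to GFPlo as well, with a median share of 32.8%. Among the 114 members with 50 reads or more, 109 lay between, 111 were nearer to GFPlo, and the median share was 23.5%. Among the 46 with fewer reads, 33 lay between, 28 were nearer to GFPlo, and the median share was 43.6%.

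**Figure D1:**
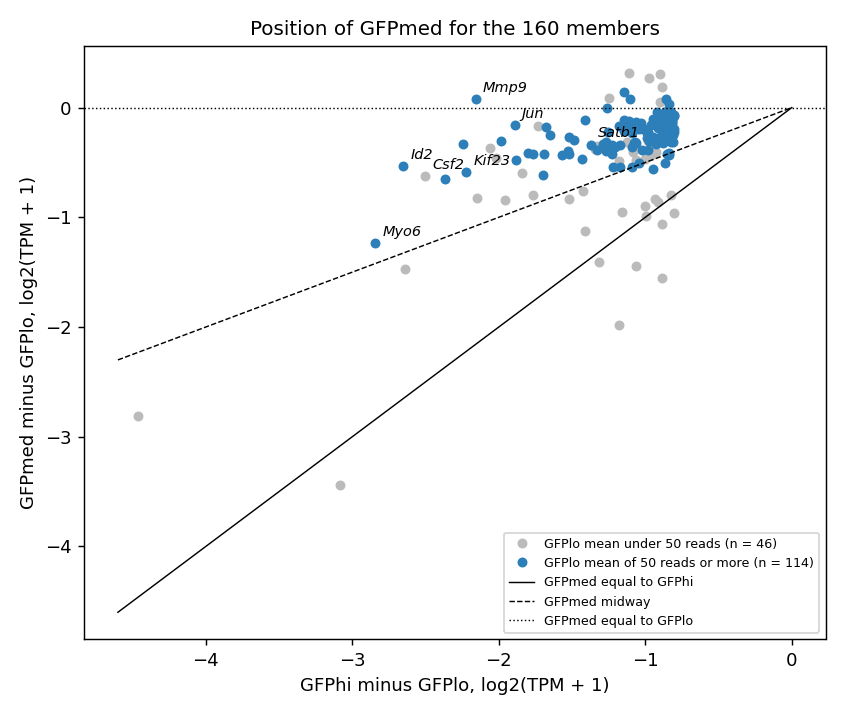
Each point is 1 of the 160 members, with the GFPhi minus GFPlo difference on the x axis and the GFPmed minus GFPlo difference on the y axis, both in log2(TPM + 1), and colour marks the 114 members with a GFPlo mean of 50 reads or more. Most of those 114 lie between the dotted line, where GFPmed equals GFPlo, and the dashed line midway to GFPhi, while the points near or below the solid line, where GFPmed equals GFPhi, have fewer reads.

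No member passed limma's threshold between GFPmed and GFPlo (0 of 160 at an adjusted p of at most 0.05), where 1 of 30693 genes, or 0.00326%, was called lower. At an unadjusted p under 0.05, 46 members were lower, against 1.93% of all genes. By limma-voom on the solved reads, 17 members were called lower among 24 genes of 30522. These were Myo6, Adam15, Id2, Kif23, F13a1, Fkbp1a, Got1, Itm2a, Slc9a9, Lztfl1, Bcl2, Nbeal2, Runx1, Satb1, Lef1os1, Zfp281 and Lef1, in order of their voom difference, from -1.47 for Myo6 to -0.29 for Lef1. Every GFPmed sample was below every GFPlo sample in 75 members, against 4.7% of all genes.

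GFPhi was called lower than GFPmed in 59 members at an adjusted p of at most 0.05, against 0.609% of all genes, and in 23 with a log2 difference of at least 1, against 0.15%. All 59 had 50 reads or more. Every GFPhi sample was below every GFPmed sample in 118 members, against 9.41% of all genes. Both contrasts share samples with the choice of members, GFPlo in one and GFPhi in the other, so these counts describe the members and are not independent of the rule. The count also rested on the scaling. Under median-of-ratios scaling it was 6 (Mmp9, Id2, Kif23, Prag1, Chdh and Flvcr1), among 17 genes called lower of 30364. With quantile normalization it was 39 among 190 of 30693, and with limma-voom 97 among 697 of 30522. It rested on the samples too, with 28, 26 and 32 calls without GFPmed replicate 1, 2 or 3, and 31 without GFPhi replicate 3. Over all genes these fits called 53, 50, 66 and 75 lower. With all 3 samples of a replicate number left out, the count of members was 2, 1 and 0 without numbers 1, 2 and 3, among 8, 4 and 0 genes. Calls for genes higher or lower in GFPhi than in GFPmed were 40.4% lower in the first fit and 16.3% lower under median-of-ratios scaling.

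The rule was also run on 2 replicate numbers at a time, and the left-out pair was read beside it. The members themselves were chosen on all GFPlo and GFPhi samples, so these runs describe the rule and are no test of the members. When members were chosen on replicates 1 and 2 alone, 319 genes passed, 206 of them (64.6%) were lower in GFPhi 3 than in GFPlo 3, and their median difference was -1.10 in the choosing samples and -0.48 in the left-out pair, where 46.2% of all genes tested were lower. Choosing without replicate 1 gave 236 genes, of which 80.1% were lower in the left-out pair (57% of all genes), and choosing without replicate 2 gave 205, of which 93.7% were lower (60.3% of all genes). Depth divided these genes. With 50 reads or more in the choosing samples, 97%, 97.8% and 82.3% were lower in left-out replicates 1, 2 and 3, with medians of -0.94, -0.86 and -0.83. With fewer reads, or none solved, the shares were 58.3%, 84.8% and 47.2%.

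Transcription factors and chromatin proteins formed the largest role group of known function, with 19 members. Of these, 12 were called lower in GFPhi than in GFPmed, against 0.609% of all genes. Every GFPmed sample was below every GFPlo sample in 11, against 4.7% of all genes. Such counts, here and in the role groups below, share samples with the choice of members and only describe them. Id2, an inhibitor of the DNA binding of E proteins, had the largest difference between GFPlo and GFPhi among them. It was at 1317, 1616 and 1580 TPM in GFPlo, 942, 1141 and 1031 in GFPmed, and 216, 273 and 228 in GFPhi. The groups did not overlap at either step. The log2 difference was -0.53 ± 0.12 (SE) from GFPlo to GFPmed and -2.12 ± 0.12 from GFPmed to GFPhi (limma adjusted p = 0.485 and 0.000375), so that 20.1% of the fall was reached in GFPmed. Satb1, a chromatin organizer needed in thymocyte development, was at 753, 749 and 778 TPM in GFPlo, 642, 612 and 554 in GFPmed, and 275, 309 and 295 in GFPhi. It had the most reads of any member, and its steps were -0.34 ± 0.07 and -1.04 ± 0.07 (SE, limma adjusted p = 0.383 and 0.000834).

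Of the HMG-box factors, which bend DNA and set T cell fate, 2 were members. Lef1, a partner of beta-catenin, stood at 171, 167 and 193 TPM in GFPlo, 146, 149 and 141 in GFPmed, and 85.1, 103 and 99.1 in GFPhi, again with no overlap, and its GFPhi minus GFPmed difference was -0.60 ± 0.09 (SE, limma adjusted p = 0.0187). The antisense transcript Lef1os1 gave 1274 to 1627, 1094 to 1190 and 738 to 850 TPM in the same order of groups. Sox13, a factor of gamma-delta T cells, was at 9.14, 9.01 and 11 TPM in GFPlo, 9.31, 6.48 and 4.91 in GFPmed, and 2.45, 1.03 and 2.48 in GFPhi. GFPlo and GFPmed overlapped for Sox13, and its GFPhi minus GFPmed difference of -1.41 ± 0.30 did not pass (SE, limma adjusted p = 0.0746). Of the 6 other HMG-box genes tested, limma called 3 lower in GFPhi than in GFPlo, Tox, Tox2 and Tox4, with log2 differences of -0.70, -1.10 and -0.38, and 0 higher (1 at an unadjusted p under 0.05, and 1 by limma-voom).

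Runx1, which silences Cd4 in immature thymocytes, was at 14.9, 16 and 15.5 TPM in GFPlo, 12.7, 12 and 11.5 in GFPmed, and 6.94, 6.3 and 7.21 in GFPhi. Its steps were -0.34 ± 0.12 and -0.74 ± 0.12 (SE, limma adjusted p = 0.921 and 0.0267). Runx3, the family member of the CD8 lineage, differed in the other direction, with means of 7.32 TPM in GFPlo and 15.1 in GFPhi (log2 difference 0.96, limma adjusted p = 0.0158). Jun, a subunit of AP-1, was at 11.3, 15 and 13.8 TPM in GFPlo, 13.6, 8.28 and 14.4 in GFPmed, and 1.94, 4.09 and 2.8 in GFPhi. GFPmed overlapped GFPlo, and the drop lay between GFPmed and GFPhi, at -1.73 ± 0.28 (SE, limma adjusted p = 0.028). It rested on 13 to 24 reads in each GFPhi sample. Of the 12 other AP-1 and BACH genes tested, Jund, Fosl2 and Batf were called higher in GFPhi than in GFPlo, by 0.66, 1.83 and 0.89, and limma called 0 lower (2 at an unadjusted p under 0.05, and 2 by limma-voom).

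Of the 6 ID and E protein genes tested beside Id2, Id3, which shares its mode of action, was called higher, with means of 612 TPM in GFPlo, 738 in GFPmed and 1320 in GFPhi (GFPhi minus GFPlo 1.11, limma adjusted p = 0.00167). Of 28 other T-lineage factors tested that are no members, 5 were called lower and 7 higher in GFPhi than in GFPlo. The members on that list were Satb1 and Zfp683, which encodes Hobit and had 45 reads on average in GFPlo. Zfp683 was at 6.96, 4.99 and 5.96 TPM in GFPlo, 4.24, 5.37 and 3.55 in GFPmed, and 2.21, 1.79 and 1.27 in GFPhi. The 5 called lower were Bcl11b, Gata3, Hivep3, Patz1 and Egr1, by 0.50 to 0.76, short of the size condition of the rule. The 7 called higher were Klf2, Myb, Bcl6, Gfi1, Ikzf3, Stat5a and Foxo1, from the largest log2 difference to the smallest. Each of these differences was larger in size than those of the 5 called lower. Klf2 went from a mean of 87.8 TPM in GFPlo to 537 in GFPhi, and Foxo1 from 12.8 to 24.5.

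Egr2, an early target of TCR signalling, was at 389, 389 and 396 TPM in GFPlo, 353, 315 and 290 in GFPmed, and 217, 220 and 191 in GFPhi. Its 3 groups did not overlap, 33% of the fall was reached in GFPmed, and the second step was -0.61 ± 0.09 (SE, limma adjusted p = 0.0152). Egr1, which is no member, had means of 966, 844 and 569 TPM in the 3 groups. Zfp281, a zinc finger repressor, was at 435 to 500 TPM in GFPlo, 343 to 403 in GFPmed and 204 to 233 in GFPhi. Etv5, an ETS factor downstream of ERK, was at 9.5 to 10.6 TPM in GFPlo, 9.39 to 12.2 in GFPmed and 4.25 to 5.54 in GFPhi, so that GFPmed covered the range of GFPlo. Hmga1, Zmiz1, Cry1 and Cbx5 were also called lower in GFPhi than in GFPmed, by 0.64 to 0.80.

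**Figure D2:**
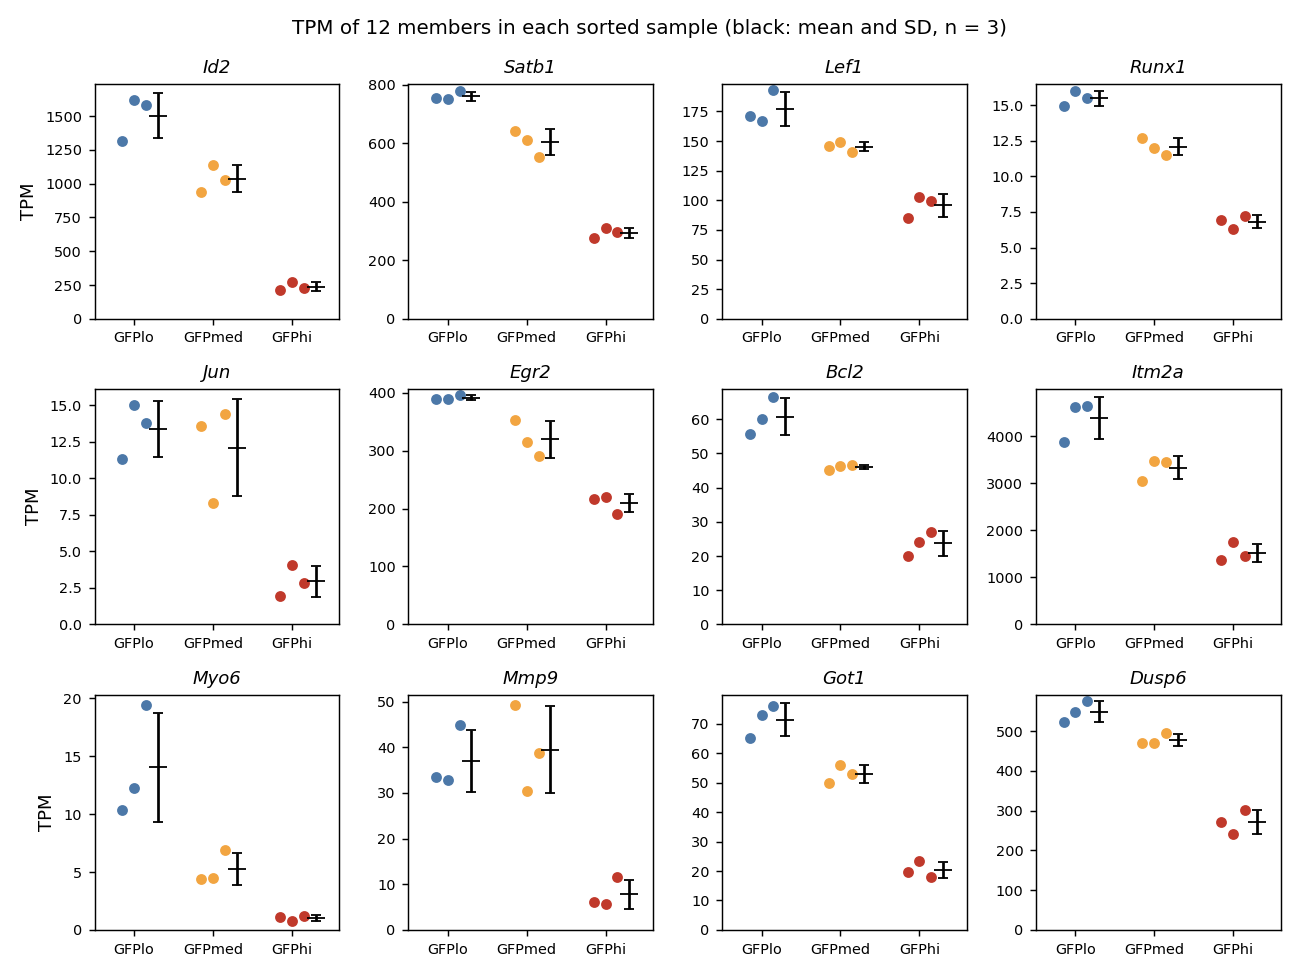
TPM on the y axis of 12 members in each sample of GFPlo, GFPmed and GFPhi, with coloured points for the 3 samples of a group and a black bar for their mean and SD. For Id2, Satb1, Lef1, Runx1 and Egr2 the 3 groups stand apart in order, while for Jun and Mmp9 the GFPmed samples overlap those of GFPlo.

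Among signalling proteins (13 members), Dusp6, a phosphatase that inactivates ERK, was at 524, 548 and 575 TPM in GFPlo, 469, 470 and 496 in GFPmed, and 272, 241 and 302 in GFPhi. Its second step was -0.82 ± 0.08 (SE, limma adjusted p = 0.00448). Fkbp1a, the binding protein of FK506 and a partner of calcium release channels, was at 260, 321 and 324 TPM in GFPlo, 207, 229 and 233 in GFPmed, and 96.9, 105 and 99.3 in GFPhi, with no overlap at either step. Of the 9 other FK506-binding protein genes tested, limma called 0 in either direction between GFPhi and GFPlo, with 1 lower and 1 higher both at an unadjusted p under 0.05 and by limma-voom. Itpr1, the inositol trisphosphate receptor that such proteins bind, was called lower in GFPhi than in GFPmed by 0.81 ± 0.11 (SE, limma adjusted p = 0.0158). Prag1, a pseudokinase, was at 9.13, 8.09 and 10.9 TPM in GFPlo, 9.32, 7.83 and 7.25 in GFPmed, and 2.46, 1.89 and 2.37 in GFPhi, and was called lower in GFPhi than in GFPmed (limma adjusted p = 0.0104). Axin2, a feedback inhibitor and a target of Wnt signalling, was at 8.76 to 11.5 TPM in GFPlo, 6.41 to 8.67 in GFPmed and 3.47 to 6.85 in GFPhi, with 49.2% of its fall in GFPmed.

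Bcl2, which blocks mitochondrial apoptosis, was at 55.8, 60.1 and 66.5 TPM in GFPlo, 45.3, 46.4 and 46.5 in GFPmed, and 19.9, 24 and 27.1 in GFPhi. The 3 groups did not overlap, and the second step was -0.94 ± 0.12 (SE, limma adjusted p = 0.0109). Csf2, the cytokine GM-CSF, had 42.7 reads on average in GFPlo, and was at 7.65, 16.1 and 11.4 TPM there, 4.98, 9.94 and 6.69 in GFPmed, and 1.78, 0.454 and 1.49 in GFPhi. Its GFPhi minus GFPmed difference of -1.88 ± 0.38 did not pass (SE, limma adjusted p = 0.064). Ctla2a, a cathepsin inhibitor of activated T cells, was at 24.8, 33.6 and 39.6 TPM in GFPlo, 21, 22.6 and 34 in GFPmed, and 6.06, 8.32 and 4.18 in GFPhi, and only its second step of -1.91 ± 0.28 was called (SE, limma adjusted p = 0.0187). Prf1, the pore-forming protein of cytotoxic cells, was at 4.68 to 7.83 TPM in GFPlo, 5.15 to 6.72 in GFPmed and 2.15 to 3.43 in GFPhi.

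Motors and cytoskeletal proteins (8 members) held the largest difference among members with 50 reads or more. Myo6, the myosin that moves towards the minus end of actin, was at 10.4, 12.3 and 19.4 TPM in GFPlo, 4.4, 4.51 and 6.88 in GFPmed, and 1.14, 0.774 and 1.18 in GFPhi. All 3 groups stood apart, with 829 to 1772 reads per GFPlo sample and 87 to 147 per GFPhi sample, and with steps of -1.24 ± 0.28 and -1.61 ± 0.28 (SE, limma adjusted p = 0.485 and 0.0379). Its share of the fall in GFPmed was 43.5%. Kif23, a kinesin of the central spindle in cytokinesis, was at 106, 106 and 101 TPM in GFPlo, 75.9, 70.1 and 61.8 in GFPmed, and 17.9, 23.7 and 23.4 in GFPhi, with a second step of -1.64 ± 0.12 (SE, limma adjusted p = 0.00129). Of the 47 other unconventional myosin and kinesin genes tested, 5 mitotic kinesins, Kif11, Kif18b, Kif20a, Kif22 and Kif2c, were called higher in GFPhi than in GFPlo, by 0.56 to 1.57, and limma called 0 lower (2 at an unadjusted p under 0.05, and 1 by limma-voom). Myl10, a myosin light chain, was at 12.1, 12.5 and 14.8 TPM in GFPlo, 9.05, 10.1 and 12.2 in GFPmed, and 3.5, 1.42 and 3.12 in GFPhi. Gsn, which severs actin, and Tuba4a, an alpha-tubulin, were called lower in GFPhi than in GFPmed by 0.91 ± 0.10 and 0.79 ± 0.08 (SE, limma adjusted p = 0.00648 and 0.00344). Lztfl1, a regulator of ciliary trafficking, was at 110 to 121 TPM in GFPlo, 81.5 to 88.6 in GFPmed and 36.2 to 40.9 in GFPhi. Its gene overlaps Ccr9, which had means of 311, 226 and 60.4 TPM in the 3 groups.

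Matrix proteins, proteases and secreted proteins gave 7 members. Mmp9, a gelatinase, was at 33.5, 32.8 and 44.8 TPM in GFPlo, 49.3, 30.4 and 38.8 in GFPmed, and 6.1, 5.75 and 11.5 in GFPhi. Its GFPmed mean lay above its GFPlo mean, the groups overlapped, and the whole difference was between GFPmed and GFPhi, at -2.24 ± 0.28 (SE, limma adjusted p = 0.0103). Adam15, a disintegrin and metalloprotease, had 36.1% of its fall in GFPmed, with 81.9, 82.7 and 72.3 TPM in GFPlo, 53.8, 52.5 and 47.5 in GFPmed, and 22.2, 28 and 21.2 in GFPhi. Of the 46 other metalloprotease and inhibitor genes tested, 1 was called lower in GFPhi than in GFPlo (Timp2) and 4 higher (Adamts10, Adamts6, Adamtsl2 and Mmp11). F13a1, a transglutaminase subunit of clotting factor XIII, was at 6.19 to 7.11 TPM in GFPlo, 4.38 to 4.96 in GFPmed and 1.25 to 1.49 in GFPhi. Lamc1, a laminin chain, was at 7.86, 8.77 and 7.48 TPM in GFPlo, 6.56, 4.11 and 5.2 in GFPmed, and 4.92, 2.4 and 2.78 in GFPhi. It was called at neither step. Of the 12 other collagen-modifying enzyme and laminin genes tested, limma called 0 between GFPhi and GFPlo, with 4 lower at an unadjusted p under 0.05 and 2 lower by limma-voom.

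Surface receptors and adhesion proteins made up 17 members, 5 of them called lower in GFPhi than in GFPmed, against 0.609% of all genes. Itm2a, a membrane protein induced during thymocyte selection, had the highest level of all members when reads were divided by exonic length, at a mean of 2725 RPKM, reads scaled to exonic length and library size, in GFPlo against 329 for Satb1, 302 for Lef1 and 234 for Id2. In TPM it was at 3875, 4627 and 4646 in GFPlo, 3041, 3479 and 3453 in GFPmed, and 1375, 1744 and 1448 in GFPhi. The groups did not overlap, and the second step was -1.13 ± 0.11 (SE, limma adjusted p = 0.00403). Adgrg3, an adhesion G-protein-coupled receptor, was at 48.8, 57.8 and 51.3 TPM in GFPlo, 52.1, 51.8 and 53.6 in GFPmed, and 19.6, 22.2 and 22.3 in GFPhi. GFPlo and GFPmed overlapped, 0.0752% of the fall was reached in GFPmed, and the second step was -1.26 ± 0.09 (SE, limma adjusted p = 0.00125). Of the 9 other genes of this family tested, Adgre5 and Adgrg1 were called higher in GFPhi than in GFPlo, and limma called 0 lower (1 at an unadjusted p under 0.05, and 0 by limma-voom).

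Tlr12, a Toll-like receptor for profilin, was at 92.8, 98 and 103 TPM in GFPlo, 88.6, 69.1 and 87.2 in GFPmed, and 28.1, 37.5 and 35.5 in GFPhi. Of the 6 other Toll-like receptor genes tested, Tlr7 was called higher in GFPhi than in GFPlo. Plxnd1, a semaphorin receptor that guides thymocytes into the medulla, was at 64.5, 53.4 and 50.9 TPM in GFPlo, 53.2, 49.5 and 34 in GFPmed, and 22.1, 28.2 and 18.8 in GFPhi, with a second step of -0.95 ± 0.21 that did not pass (SE, limma adjusted p = 0.0837). Of the 18 other plexin, neuropilin and semaphorin genes tested, Sema4f was called higher in GFPhi than in GFPlo, and limma called 0 lower (4 at an unadjusted p under 0.05, and 2 by limma-voom). Axl, a TAM receptor kinase, was at 10.8, 9.03 and 7.83 TPM in GFPlo, 8.81, 6.07 and 8.94 in GFPmed, and 5.43, 2.8 and 4.22 in GFPhi, and it was called at neither step. Tyro3, 1 of the 2 other genes tested of the TAM receptors and their ligands, was called higher in GFPhi than in GFPlo, by 1.57. Emb, an adhesion protein that carries monocarboxylate transporters to the membrane, was called lower in GFPhi than in GFPmed by 0.76 ± 0.08 (SE, limma adjusted p = 0.00535).

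Channels, transporters and their partners gave 11 members, all with 50 reads or more. Kcnh3, a voltage-gated potassium channel, was at 79.7, 73.5 and 80.6 TPM in GFPlo, 62.2, 62.2 and 64.7 in GFPmed, and 25.5, 29.3 and 26.6 in GFPhi. The groups did not overlap, and the second step was -1.19 ± 0.08 (SE, limma adjusted p = 0.000741). The other channel members were Kcna2, at 14 to 22 TPM in GFPlo and 5.91 to 11.6 in GFPhi, and Hcn3, at 5 to 8.17 TPM and 1.82 to 4.5, and neither was called against GFPmed. Of the 31 other potassium and HCN channel genes tested, Kcnf1, Kcnip2 and Kcnn4 were called higher in GFPhi than in GFPlo, and limma called 0 lower (6 at an unadjusted p under 0.05, and 1 by limma-voom). Aqp9, a water and glycerol channel, Flvcr1, a haem and choline transporter, Slc15a1, a peptide transporter, and Slc27a1, a fatty acid transporter, were called lower in GFPhi than in GFPmed by 0.93 to 1.40.

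Metabolic and glycosylation enzymes gave 16 members, 8 of them called lower in GFPhi than in GFPmed, against 0.609% of all genes. Got1, the cytosolic aspartate aminotransferase of the malate-aspartate shuttle, was at 65.2, 73 and 76 TPM in GFPlo, 49.9, 56 and 53.1 in GFPmed, and 19.6, 23.5 and 17.9 in GFPhi. The second step was -1.35 ± 0.12 (SE, limma adjusted p = 0.00205). Ass1, which joins aspartate to citrulline, was at 7.59, 8.7 and 7.01 TPM in GFPlo, 7.4, 6.82 and 6.53 in GFPmed, and 3.11, 3.69 and 3.05 in GFPhi, with a second step of -0.89 ± 0.17 (SE, limma adjusted p = 0.0513). Of the 7 other aspartate shuttle and urea cycle enzymes tested, limma called 0 between GFPhi and GFPlo, with 1 lower and 2 higher at an unadjusted p under 0.05, and 1 lower and 1 higher by limma-voom. Chdh, which oxidizes choline, was at 48 to 57.3 TPM in GFPlo, 36.2 to 45.5 in GFPmed and 13.4 to 16.4 in GFPhi, and Ckb, the brain-type creatine kinase, at 1388 to 1599, 1239 to 1348 and 636 to 805 TPM. St8sia4, a polysialyltransferase, was at 23.9 to 25.3, 19.4 to 23.2 and 11.3 to 16 TPM. Pld4, an endosomal nuclease, had a GFPmed mean above that of GFPlo, at 7.26, 9.71 and 7.97 TPM in GFPlo, 7.37, 11.1 and 9.48 in GFPmed, and 3.7, 1.99 and 4.21 in GFPhi.

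The ubiquitin pathway gave 7 members. Asb2 and Klhl9, substrate adaptors of cullin ligases, and Nedd4, a HECT ligase, were called lower in GFPhi than in GFPmed by 0.93 ± 0.13, 0.76 ± 0.07 and 0.84 ± 0.11 (SE, limma adjusted p = 0.0135, 0.00263 and 0.0104). RNA, translation and protein folding gave 6, with Gpatch4 and Bzw2 called in the same contrast. Ddx19a, an RNA helicase, was at 48.7 to 54.8, 36 to 45.7 and 15.9 to 28 TPM, and Hyou1, a chaperone of the endoplasmic reticulum, at 68 to 88.3, 62.2 to 69 and 33.1 to 43.9 TPM. Of the 23 other or little-studied proteins, 7 were called, against 0.609% of all genes. Dmwd, a WD-repeat protein, led them, at 17.5, 22 and 20 TPM in GFPlo, 12.5, 14.2 and 10.3 in GFPmed, and 2.47, 4 and 2.78 in GFPhi. Its second step was -1.71 ± 0.20 (SE, limma adjusted p = 0.00676).

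**Figure D3:**
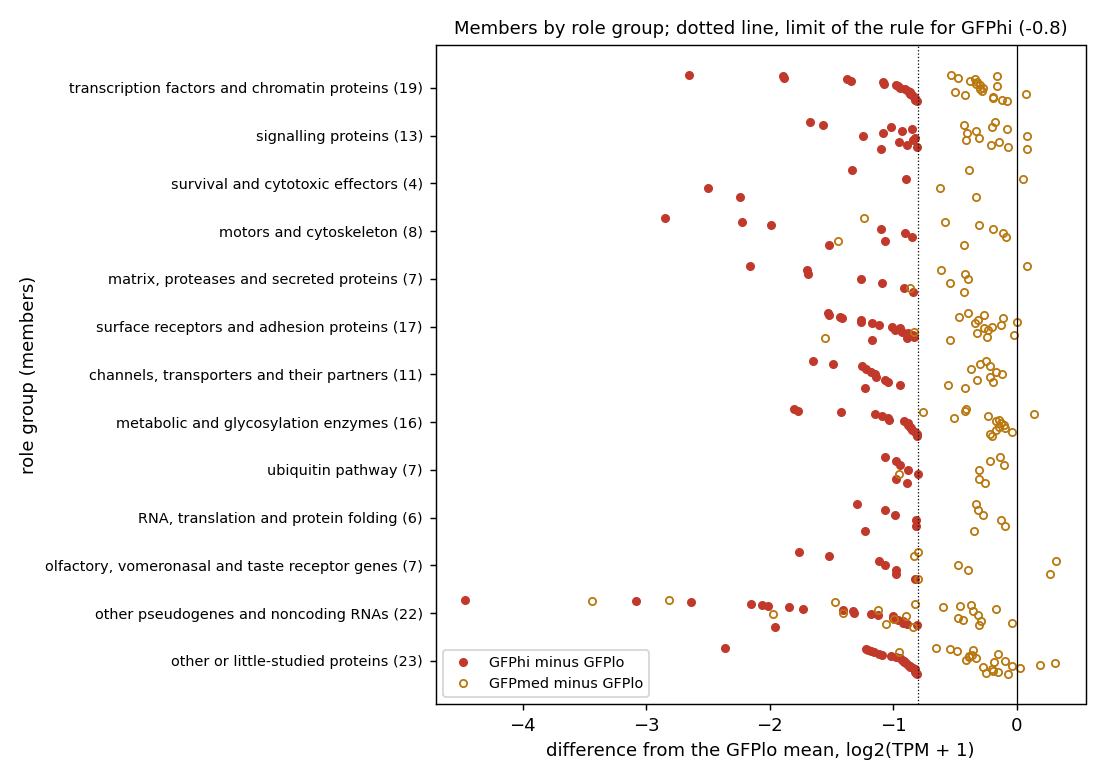
Role groups are listed on the y axis with their number of members, and each member has a filled point for its GFPhi minus GFPlo difference and an open point for its GFPmed minus GFPlo difference on the x axis, in log2(TPM + 1). Open points of the protein groups mostly lie between -0.6 and 0, while those of pseudogenes and noncoding RNAs reach -3.44.

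Of the 15 largest differences between GFPlo and GFPhi, 7 belonged to genes named as pseudogenes, a small RNA and unnamed transcripts, with 1.67 to 12.7 reads on average in GFPlo. These were BX681418.1 (-4.47), the Y RNA gene Rny3 (-3.08), Klk1b28-ps (-2.64), Itpa-ps3 (-2.15), AC122843.1 (-2.06), Minpp1-ps (-2.02) and Vma21-ps (-1.96). BX681418.1 had 9, 5 and 3 reads in GFPlo and 1, 0 and 0 in GFPhi, and Rny3 had 2, 3 and 3 reads in GFPlo and 2, 0 and 0 in GFPhi. Of the 46 members under 50 reads, limma called 0 lower in GFPhi than in GFPmed, and 33 had GFPmed strictly between. The groups of 22 other pseudogenes and noncoding RNAs and of 7 olfactory, vomeronasal and taste receptor genes had no call against GFPmed, with median shares of 44.2% and 45%.

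Low depth also marked the members with the most and the least of their fall in GFPmed. The highest shares were in Gpbar1 (175%), Llph-ps1 (168%), Tekt2 (135%), Platr23 (120%) and Ube2d2b (119%), where GFPmed lay below GFPhi. Gpbar1, a bile acid receptor, was at 16.4, 24 and 21.1 TPM in GFPlo, 5.92, 13.2 and 2.84 in GFPmed, and 10.2, 8.1 and 13.9 in GFPhi, and its GFPhi and GFPmed samples overlapped. The lowest were in Zdhhc25 (-34.3%), Olfr1474 (-28.4%), Tas2r138 (-27.7%), Tmem176a (-20.7%) and Pld4 (-12.3%), where GFPmed lay above GFPlo. Of these 10 genes only Pld4 had 50 reads or more in GFPlo. Within the 114 deeper members the highest share was 58.8%, in Cacnb3, a calcium channel subunit with 14.4 ± 3.24 TPM in GFPlo, 9.39 ± 1.31 in GFPmed and 7.17 ± 2.66 in GFPhi (SD, n = 3), and its GFPmed and GFPhi samples overlapped.

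**Figure D4:**
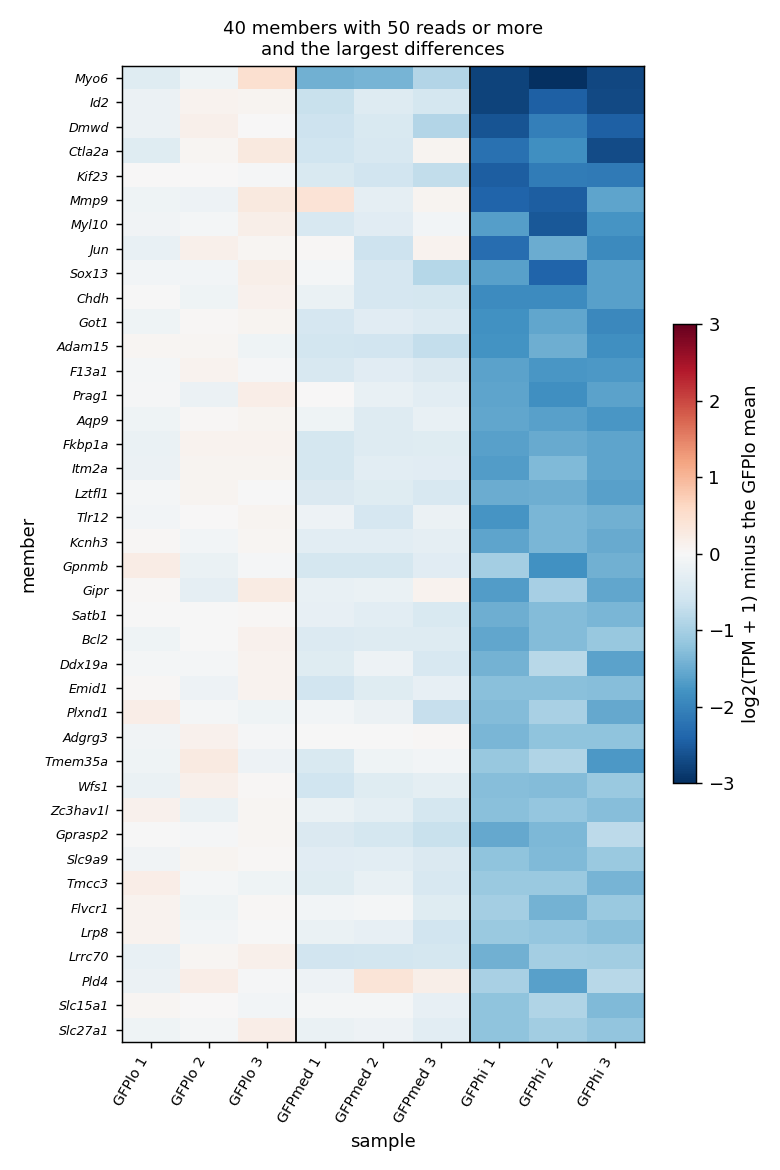
Colour gives log2(TPM + 1) minus the gene's GFPlo mean in each of the 9 samples (columns) for the 40 members with 50 reads or more and the largest GFPhi minus GFPlo differences (rows). The GFPhi columns are blue in every row and darkest for Myo6 and Id2 at the top, and the GFPmed columns are paler, with the strongest blue for Myo6.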

How the data were processed

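SP4 thymocytes of 3 reporter gates were profiled by SMART-seq v4 RNA-seq in 9 samples. The authors trimmed reads, used STAR 2.7.11b on GRCm38 and GENCODE genes, dropped duplicate reads and deposited TPM per sample. A group-mean signal (reads over DESeq2 1.34.0 size factors) was deposited by them as well, next to log2 fold changes, adjusted p-values and call scores of their own comparisons, which were not used. Groups follow the sample labels, and 0 sample columns were left unused.

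TPM divides by mean transcript span, so levels of different members were compared only as RPKM on exonic length. RPKM was computed from reads solved from the TPM and the group signal (whole within 0.05 for 100% of values checked). Marker sums add TPM over genes, so genes of short span weigh more in them, and they compare groups within a list only. Log2(TPM + 1) was tested with limma 3.58.1 in R 4.3.3, 1 model over 9 samples, eBayes with trend and Benjamini-Hochberg adjustment over all genes that reached 1 TPM in 3 or more of the samples. The fit was tested on simulated data. Fold changes on this scale understate those of low genes. The labels number biological replicates, but whether they are separate mice is not stated for each sample, so p-values measure the spread between samples. Reads are PCR products without molecular identifiers, so their number gives counting error only.

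Members, role groups and gene lists were chosen with earlier results of these data known. Named genes were the 15 largest differences, members on a gene list, the 5 with most and the 5 with least of their fall in GFPmed, and 3 on each side of each threshold. Others stand as examples of their role group, mostly in order of difference, and some of these were chosen after their values were seen. Alternatives were another pseudocount, no filter or a stricter one, 2 other scalings, the replicate block, only the groups compared, no trend, each sample left out, limma-voom on solved reads, and other thresholds of the rule. A minimum of 50 reads and the calls without a whole replicate number were added after seeing the data. RefSeq promoter windows and GENCODE vM21 annotation are of the same build as the files. The text of the study gives the gate as CD24lo in 1 place and CD24hi in another, and the labels as CD24+.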

Additional observations from a re-analysis of the deposited data

How the results depend on the processing

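With 1 sample, or all 3 samples of a replicate number, left out, the rule gave 178 to 319 members, GFPmed was strictly between in 136 to 269, the median share of the fall was 23.6% to 33.5%, and 0 to 49 members were called lower in GFPhi than in GFPmed, against 160, 142, 26.4% and 59. Between GFPmed and GFPlo the count stayed at 0 in all of these. The highest counts of members came without GFPlo replicate 3 (263), without GFPhi replicate 1 (268) and without replicate 3 of every group (319), and the calls against GFPmed numbered 31 without GFPhi replicate 3 and 28, 26 and 32 without GFPmed replicates 1, 2 and 3. Single samples left out gave 26 to 49 of these calls, whereas a whole replicate number left out, an alternative chosen after seeing the data, gave 2, 1 and 0, in fits with 2 samples per group. Over all genes, such calls numbered 50 to 174 without single samples and 8, 4 and 0 without a whole number. Other thresholds gave 105 members at 10 TPM, 313 at a difference of at most -0.6 (282 with GFPmed between), 84 at -1 (75 between) and 253 with no condition on overlap. The calls in GFPhi against GFPmed were 6 with median-of-ratios scaling, 39 with quantile normalization, 23 with only the 2 groups compared and 97 with limma-voom, which called 17 members in GFPmed against GFPlo. Over all genes, the calls in GFPhi against GFPmed were 17, 190, 59 and 697 in the same order, against 187 in the first fit. The cause of these differences was not tested, beyond the fewer samples of some fits. All other alternatives kept these counts within 1.5 times, except where a sample or a replicate number was left out. Of the members named by the rule, calls in GFPhi against GFPmed ended in 70 combinations of member and alternative, 14 of them with median-of-ratios scaling, 8 with only the 2 groups compared, 5 with quantile normalization and 5 with the replicate block, and 11 were gained. None of their called differences changed sign. With the replicate block 41 members were called lower in GFPhi than in GFPmed, among 99 genes of 30693, and 0 in GFPmed than in GFPlo. The calls of Runx1, Jun, Lef1, Ctla2a, Myl10, F13a1, Slc15a1, Gpatch4, Zmiz1, Etv5, Cry1 and Cbx5 ended. Those of Epm2aip1, Lysmd3, Tacc2, Ptprf, Pigm and Tspyl4 ended too, and over all of these the limma adjusted p ran from 0.0528 for Myl10 to 0.107 for Tspyl4. Deviations of same-numbered samples correlated at 0.0122 to 0.225 (9 pairs, mean 0.0609) and those of differently numbered samples at -0.185 to 0.148 (18 pairs, mean -0.0305), and GFPlo 2 correlated better with GFPhi 3 (0.0393) than with GFPhi 2 (0.0122). Whether a number marks the same mouse is not given in the sources used here, and no pairing was assumed. Depth limits the 46 members under 50 reads most.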
